A study of Capsicum annuum with 12 samples.

Results

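The intervals described here are stretches of pepper chromosomes that lay inside peaks of both H3K4me3 and H3K27me3. Peaks that overlapped or touched were merged in each list. Bases covered in both replicate lists of a mark formed the regions of that mark. The intervals are the bases that H3K4me3 regions and H3K27me3 regions had in common, on the 12 chromosomes, where such a stretch reached 100 bp. There were 3057 of them, with 1.48 Mb in all, among 31452 H3K4me3 regions and 29068 H3K27me3 regions of at least 100 bp, and 64546 regions of that length when H3K9me2 was counted too. The intervals were chosen from the peak calls of these same 4 libraries, so their existence and the fold of their peaks are given as descriptions with no test.

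The samples were young leaves of Capsicum annuum, cultivar 59, with no treatment named. All groups shared this cultivar and tissue and differed in the antibody: 2 libraries were precipitated for H3K4me3 (antibody ab8580), 2 for H3K27me3 (07-499) and 2 for H3K9me2 (ab1220), and 6 further samples were inputs without antibody. No label ties a replicate to a plant of its own, so the spread between replicates may be technical. On the chromosomes the H3K4me3 lists held 34467 and 33855 peaks and the H3K27me3 lists 37284 and 33098, in replicates 1 and 2, with median summit depths of 73 and 80 fragments for H3K4me3 and 21 and 20 for H3K27me3.

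COMPASS-type methyltransferases place H3K4me3, a mark of the first nucleosomes of active genes. H3K27me3 is placed by Polycomb repressive complex 2, which in plants contains CURLY LEAF or a relative of it, and is known from silenced developmental genes. In animals, regions with both marks are called bivalent, and the term is also used in plants for genes that are held silent but can be switched on by a signal. In these data each mark was precipitated separately from a mixture of leaf cells. Both marks on the same nucleosome, on neighbouring nucleosomes and in different cells therefore cannot be told apart.

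The intervals were short. Their length ran from 100 to 2602 bp with a median of 395 bp, and the middle 50% lay between 273 and 595 bp. Of the 3057 intervals, 219 reached 1 kb (7.16%) and 9 reached 2 kb, while 222 were under 200 bp (7.26%). When 1 H3K4me3 library was set against 1 H3K27me3 library, the 4 possible pairs gave medians of 394 to 399 bp. The limit of 100 bp left out 57 shorter overlaps with 3620 bases. Just inside it were 21 intervals under 120 bp, and just outside 23 overlaps of at least 80 bp. The shortest kept had 100 bp (chromosome 3, 4625696 to 4625795) and 102 bp (chromosome 6, 21789804 to 21789905). The longest left out had 97 bp (chromosome 7, 254973155 to 254973251) and 96 bp (chromosome 5, 238389699 to 238389794).

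One mark was usually nested within the other. In 1337 intervals (43.7%) the whole H3K4me3 region lay inside a longer H3K27me3 region, and in 1005 (32.9%) the whole H3K27me3 region lay inside a longer H3K4me3 region. The other 715 (23.4%) were staggered, each region reaching past the other at one end. Of these, 373 had H3K4me3 at the lower coordinates and 342 had H3K27me3 there, so neither direction along the chromosome prevailed by much. In none of the 3057 did both marks have the same ends. In the 4 pairs of single libraries, H3K4me3 was nested in 42.7 to 43.7% of the meetings, H3K27me3 in 31.1 to 33.8%, and 22.7 to 25.7% were staggered. The order of the 3 classes was thus the same in each pair of libraries. It also held between the nested classes on each chromosome: H3K4me3 nested in H3K27me3 was the more frequent of the 2 on 12 of 12.

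**Figure D1:**
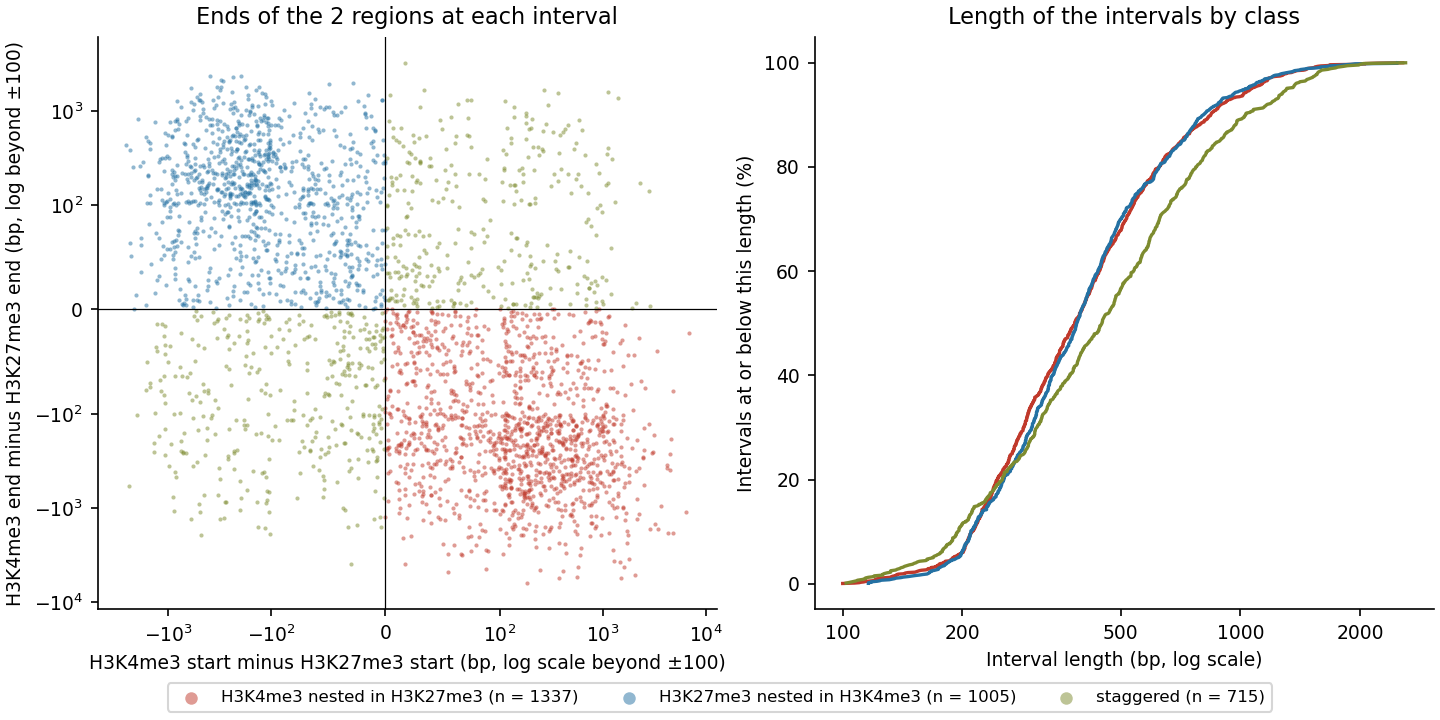
Left, the start and end of the H3K4me3 region minus those of the H3K27me3 region at each of the 3057 intervals, in bp, on axes that are logarithmic beyond ±100 bp. Points at the lower right are H3K4me3 regions nested in H3K27me3 (1337), those at the upper left the reverse (1005), and the other quadrants are staggered (715). Right, the cumulative share of intervals by length (bp, log scale) for the same classes, in which the staggered intervals reach further, with a median of 449 bp.

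The class of a nested interval was kept from library to library more often than that of a staggered one. In a single pair of libraries, 67.4 to 76.9% of staggered intervals had the class found with all 4 libraries, against 88.4 to 91.8% with nested H3K4me3 and 81.5 to 87.7% with nested H3K27me3. The class was the same in all 4 pairs of libraries for 73.3% of the intervals with nested H3K4me3 and for 67.3% of those with nested H3K27me3, but for 32.9% of the staggered ones. Peak ends differed between the replicates of a mark by a median of 39 bp for H3K4me3 and 46 bp for H3K27me3. The overhangs of staggered regions were of that order, with a median of 76 bp for H3K4me3 and 82 bp for H3K27me3, and in 427 of the 715 (59.7%) at least one overhang was at most 50 bp. Only 153 staggered intervals (21.4%) had both overhangs over 100 bp. When ends within 100 bp counted as the same end, the staggered share was 5.005%, while nested H3K4me3 made up 42.0% and nested H3K27me3 31.7%. The rest then had both ends the same. A region with a single shared end counted as nested, so intervals could move both into and out of the nested classes. Staggered regions also overlapped for most of their length: the interval took a median of 85.0% of the H3K4me3 region and 85.2% of the H3K27me3 region. Regions that met by their outer edges alone were thus a minority even of the staggered intervals.

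The host reached past a nested region on both sides by margins that were alike in the 2 nested classes. For H3K4me3 nested in H3K27me3, the host reached past the nearer end by a median of 90 bp and past the farther end by 352 bp. The margins for H3K27me3 nested in H3K4me3 were close to these, at 87 and 286 bp. The nearer margin was at most 100 bp in 54.0% of the former and 56.5% of the latter. It was 200 bp or more in 308 intervals with nested H3K4me3 (23.0%) and in 187 with nested H3K27me3 (18.6%). The nearer margin was at the lower coordinates in 50.6% and 50.5%, so no side was favoured. The nearer margin is the shorter by definition. It held a median of 23.9% of the host's free bases for nested H3K4me3 and 25.3% for nested H3K27me3, and under 25% of them in 52.1% and 49.2%. A place drawn evenly along the host would give about the same, so no preference for centre or edge is read from the margins.

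The width of the regions is tied to class by definition, since a nested region is always the narrower, so the widths are given as a description of the classes. The H3K4me3 region had a median width of 383 bp where it was nested, 640 bp where it was staggered and 918 bp where it held the H3K27me3 region. For H3K27me3 the medians were 997, 605 and 388 bp in the same order. Interval length itself differed little, with a median of 383 bp for nested H3K4me3, 388 bp for nested H3K27me3 and 449 bp for staggered intervals. When the intervals were split into 4 groups of like size by the width of the H3K4me3 region, 79.5% of the narrowest group (100 to 356 bp) were nested in H3K27me3 and 4.45% held it. In the widest group (963 to 3640 bp) the shares were 11.7% and 61.5%. Over the intervals the widths of the 2 regions were unrelated (Spearman's rho = 0.00837, 3057 intervals, given as a description).

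The interval was the larger part of both regions in 1605 cases (52.5%), where it took at least 50% of each. It took at least 50% of the H3K4me3 region alone in 819 (26.8%) and of the H3K27me3 region alone in 602 (19.7%). In 31 (1.01%) it took less than 50% of either. If the 1605 are limited to those with at least 20 fragments over the summit in each of the 4 libraries, 1099 intervals (36.0% of all) are left, with a median length of 599 bp. Of these, 428 had nested H3K4me3, 335 nested H3K27me3 and 336 staggered ends, so nested H3K27me3 was no more frequent than staggered ends here. The class was the same in all 4 pairs of libraries for 564 of the 1099, against 1891 of all 3057.

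The 2 longest intervals of each class show the layouts. Among those with nested H3K4me3, the interval on chromosome 8 from 97963512 to 97966070 filled 2559 bp of an H3K27me3 region of 2876 bp. Its fold, the authors' enrichment of the peak over local background, was 24.3 and 6.91 in the H3K4me3 lists and 28.4 and 36.5 in the H3K27me3 lists, for replicates 1 and 2. The H3K4me3 replicates differed there, and their summits lay far apart, at 97965923 and 97964187. The other, on chromosome 12 from 21953866 to 21956076, lay near one end of an H3K27me3 region of 3691 bp that reached 40 bp past it on one side and 1440 bp on the other. H3K4me3 fold was 18.4 and 23.1 there, and H3K27me3 fold 13.6 and 14.3.

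The longest with nested H3K27me3 both lay near the end of chromosome 10, at 98.3% and 97.8% of its span. One ran from 244311761 to 244314244 (2484 bp) and the other from 242995365 to 242997847 (2483 bp), inside H3K4me3 regions of 2741 and 2768 bp. In the second, H3K4me3 fold was 33.02 and 45.3 and H3K27me3 fold 8.94 and 11.4. In the first, the H3K4me3 summits (244311989 and 244311923) and the H3K27me3 summits (244313846 and 244313914) lay towards opposite ends of the interval in both replicates.

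The longest staggered intervals took most of both regions. With H3K27me3 at the lower coordinates these were chromosome 1 from 29635926 to 29638527 (2602 bp) and chromosome 3 from 7400327 to 7402367 (2041 bp). The former is the longest of all 3057, where the H3K4me3 region had 2817 bp and the H3K27me3 region 2684 bp. In the latter, H3K27me3 passed the lower end by 543 bp. With H3K4me3 at the lower coordinates they were chromosome 2 from 171489051 to 171491052 (2002 bp) and chromosome 3 from 247464886 to 247466869 (1984 bp). On chromosome 3 from 247464886 the 4 summits fell at 247466575 and 247466560 for H3K4me3 and at 247466578 and 247466560 for H3K27me3. Both marks thus peaked at nearly the same base, where H3K4me3 fold was 41.2 and 45.4 and H3K27me3 fold 25.8 and 42.4.

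The summits of both marks usually lay within the interval and close together. The H3K4me3 summit was inside in 89.3% and 89.2% of the intervals in replicates 1 and 2, and the H3K27me3 summit in 86.7% and 87.4%. The interval covered a mean of 68.4% and 68.2% of the H3K4me3 peak and 59.01% and 63.3% of the H3K27me3 peak, and a nested region lies inside it by definition, so much of the share is set by geometry. All 4 summits were inside in 2254 intervals (73.7%) and none in 31 (1.01%). Between an H3K4me3 and an H3K27me3 library the summits were a median of 51 to 58 bp apart, over the 4 pairs. Between the replicates of a mark the median was 32 bp for H3K4me3 and 42 bp for H3K27me3. The distance between marks was thus longer at the median than that between replicates.

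Distances between marks had a longer tail. The 75th percentile was 176 to 192 bp between marks, against 78 bp between H3K4me3 replicates and 108 bp between H3K27me3 replicates. In 1405 intervals (46.0%) all 4 distances between marks were at most 100 bp, and in 387 (12.7%) all 4 exceeded 200 bp. The shortest of the 4 exceeded both distances between replicates in 615 intervals (20.1%). These 615 are the intervals in which the marks peaked apart by more than the replicates did. They made up 26.6% of staggered intervals (190), 201 of the 1005 with nested H3K27me3 and 16.8% of those with nested H3K4me3 (224). In intervals of at least 600 bp the medians between marks were 72 to 77.5 bp. A local background above 5 times the lowest of the library was found in at least 1 of the 4 peaks for 86 intervals (2.81%), and its part in the summit distances was not tested.

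**Figure D2:**
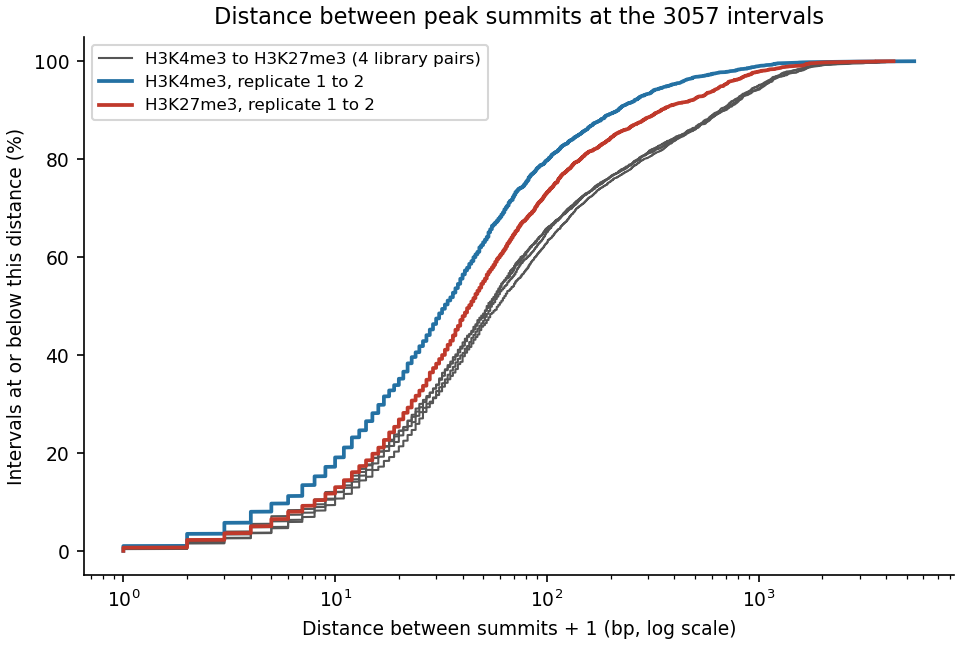
Cumulative share of the 3057 intervals by the distance between peak summits (bp plus 1, log scale), for the 4 pairs of an H3K4me3 and an H3K27me3 library (grey) and for the replicates of each mark (blue and red). The curves between marks lie to the right of both replicate curves and separate from them most beyond 100 bp, with medians of 51 to 58 bp against 32 and 42 bp.

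The strongest H3K27me3 peaks held intervals far more often than the rest, and the strongest H3K4me3 peaks less often. Each list was split by fold into 10 groups of equal size, from weakest to strongest. In the H3K27me3 lists 3.51% and 5.32% of peaks in group 1 held an interval, 5.74% and 7.102% in group 5, and 22.96% and 23.3% in group 10, for replicates 1 and 2. Among the top 1% of H3K27me3 peaks, with a fold of at least 57.9 and 53.7, 184 of replicate 1 (49.3%) and 157 of replicate 2 (47.3%) held one. About every other peak at the top of the H3K27me3 lists thus had H3K4me3 within it. In the H3K4me3 lists the share was highest in group 3, at 16.01% and 15.8%, where the fold was 6.97 to 10.3 and 6.82 to 10.1. It was 3.08% and 3.37% in group 10, and of the top 1% 7 and 2 peaks held an interval (2.03% and 0.590%). Over the whole lists 8.51% and 8.68% of H3K4me3 peaks and 7.88% and 8.98% of H3K27me3 peaks did. The lists were split by peak width in the same way. For H3K27me3 the share rose from 1.56% and 2.33% in the narrowest group to 17.3% and 17.9% in the widest. For H3K4me3 it did not: it was 7.66% and 9.21% in group 1, 14.7% and 15.8% in group 3, and 6.59% and 6.32% in group 10. Fold and width were not separated. A peak absent from the other replicate of its mark cannot hold an interval, yet it was counted in these shares. How far this lowers the share among weak or narrow peaks was not tested.

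**Figure D3:**
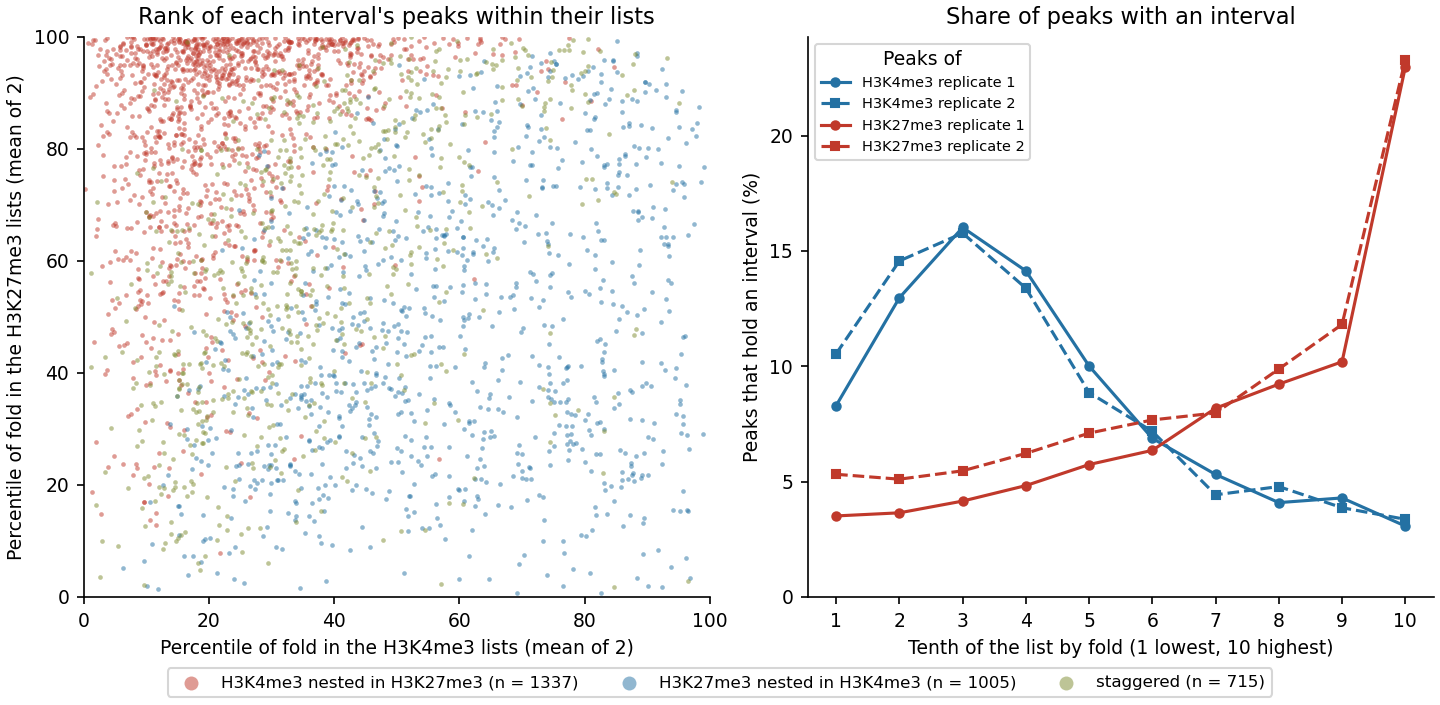
Left, for each of the 3057 intervals, the percentile of its peak's fold within the H3K4me3 lists against that within the H3K27me3 lists (each the mean of 2 replicates, in percent), coloured by class. Intervals with nested H3K4me3 gather at the upper left, low in the H3K4me3 lists and high in the H3K27me3 lists. Right, the percentage of peaks that hold an interval in 10 equal groups of each list by fold. The H3K27me3 lists climb to 22.96% and 23.3% in group 10, and the H3K4me3 lists are highest in group 3, at 16.01% and 15.8%.

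Intervals with nested H3K4me3 paired low-ranking H3K4me3 peaks with high-ranking H3K27me3 peaks. The median H3K4me3 fold in this class was 7.65 and 6.89 in replicates 1 and 2, at percentiles 22.7 and 20.3 of the lists. The median H3K27me3 fold was 23.8 and 21.7, at percentiles 90.9 and 89.8. In 1057 of the 1337 (79.1%) the peaks lay in the lower 50% of both H3K4me3 lists and the upper 50% of both H3K27me3 lists. One interval of this class showed the reverse. The median H3K4me3 summit rested on 23 and 25 fragments, and 512 and 447 of the peaks had fewer than 20 (38.3% and 33.4%). Over the whole H3K4me3 lists 19.9% and 16.7% of peaks did. Class is set by which region is narrower, and ranks were not compared at like width. The ranks are therefore given as a description, for this class and for the others.

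Intervals with nested H3K27me3 were less one-sided. The median fold was 35.9 and 32.5 for H3K4me3, at percentiles 59.1 and 57.8, and 8.18 and 7.70 for H3K27me3, at percentiles 49.4 and 42.7. Both marks were in the upper 50% of both their lists in 232 (23.1%), H3K4me3 alone in 191 (19.005%), H3K27me3 alone in 55 (5.47%) and neither in 170 (16.9%). In the other 357 (35.5%) the replicates of at least one mark fell on different sides. Here the H3K27me3 peaks had fewer fragments than the H3K4me3 peaks, with a median of 25 and 22 against 113 and 120. Of these H3K27me3 peaks 32.1% and 42.2% had fewer than 20 fragments, against 46.3% and 47.5% of the whole H3K27me3 lists. They were thus not thin for their lists. Staggered intervals lay between, with a median H3K4me3 fold of 13.5 and 12.2 and a median H3K27me3 fold of 11.3 and 9.70.

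Over all intervals, replicates of a mark ranked the intervals alike and the marks did not. Spearman's rho over the 3057 intervals was 0.865 between the H3K4me3 libraries and 0.816 between the H3K27me3 libraries. Between marks it was −0.152 to −0.108 over the 4 pairs. Within each class the sign was positive: 0.187 to 0.248 for nested H3K4me3, 0.193 to 0.291 for nested H3K27me3 and 0.450 to 0.485 for staggered intervals. The intervals share libraries and local background, so these correlations are descriptions. Longer intervals had higher fold in all 4 libraries (rho = 0.388 and 0.381 for H3K4me3, 0.319 and 0.323 for H3K27me3).

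The extremes of the balance between the marks were named by the ratio of H3K4me3 to H3K27me3 fold. The 3 with the lowest ratio all had a short H3K4me3 region inside a strong H3K27me3 region. On chromosome 3 from 259936057 to 259936345, H3K4me3 covered 289 bp of an H3K27me3 region of 4971 bp. H3K4me3 fold was 3.24 and 5.42, from 19 and 18 fragments, and H3K27me3 fold 175 and 111, from 384 and 369. At 229414341 to 229414610 of chromosome 10, H3K4me3 fold was 4.38 and 4.82 and H3K27me3 fold 109 and 167. At 331802893 to 331803226 of chromosome 1 H3K4me3 fold was 3.78 and 2.66 against an H3K27me3 fold of 56.9 and 107. The last had its 4 summits at 331803068, 331803071, 331803079 and 331803067, so the weak H3K4me3 peak and the strong H3K27me3 peak had nearly the same summit.

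The 3 with the highest ratio showed the reverse balance. On chromosome 8 from 160403071 to 160403483, an H3K27me3 region of 413 bp lay in an H3K4me3 region of 807 bp, where H3K4me3 fold was 241 and 145 and H3K27me3 fold 3.82 and 3.57. The H3K27me3 calls rested on 12 and 13 fragments. On chromosome 6 from 8629272 to 8629501 the H3K4me3 fold was 226 and 298 and the H3K27me3 fold 9.40 and 2.98, with the 4 summits between 8629375 and 8629401. On chromosome 11 from 6814003 to 6814116 an overlap of 114 bp joined the end of an H3K4me3 region of 1398 bp to an H3K27me3 region of 225 bp, where H3K4me3 fold was 154 and 221 and H3K27me3 fold 3.23 and 3.87. In both groups the weak mark stood on far fewer fragments than the strong one, which largely follows from the choice by ratio of fold.

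Few regions held more than 1 interval. Of the 31452 H3K4me3 regions 2959 held an interval (9.41%), and of these 80 held 2 and 9 held 3. Of the 29068 H3K27me3 regions 2997 did (10.3%), of which 54 held 2 and 3 held 3. The H3K4me3 region named first for its number of intervals ran from 56377334 to 56380208 on chromosome 1. It had a fold of 104 and 79.6 and held 3 separate H3K27me3 regions of 503, 764 and 448 bp. Their fold was 7.72 to 12.7 in replicate 1 and 8.78 to 17.5 in replicate 2. In replicate 1 those of 764 and 448 bp lay in a single peak. The next H3K4me3 region ran from 223508891 to 223511384 on chromosome 10, with a fold of 33.7 and 40.3. It met 3 H3K27me3 regions, the last of which passed its upper end. The first 2 of these lay in a single peak in replicate 1.

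The counterpart was an H3K27me3 region of 7659 bp on chromosome 4 from 55088723 to 55096381, with a fold of 72.2 and 80.9. It held 3 H3K4me3 regions, of 570, 121 and 825 bp, and the longest of them lay near its upper end with a fold of 20.1 and 28.3. In H3K4me3 replicate 2 the regions of 121 and 825 bp lay in a single peak. An H3K27me3 region of 5264 bp on chromosome 2 from 106093041 to 106098304 also held 3, of 381, 294 and 358 bp, with an H3K4me3 fold between 4.39 and 7.36. Several regions of one mark along a single region of the other were thus seen in both directions. Among these named cases, only that on chromosome 2 had all 3 in different peaks in both replicates.

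A separate H3K27me3 region over each end of an H3K4me3 region was rare. It was found at 8 H3K4me3 regions, and a separate H3K4me3 region over each end of an H3K27me3 region at 2. Regions nested whole in the other mark are not counted here. The longest of the 8 ran from 1005025 to 1006870 on chromosome 1 (1846 bp) and also had an H3K27me3 region of 389 bp in its middle. In H3K27me3 replicate 1 this middle region and the one at the upper end lay in the same peak. The next was 1485 bp on chromosome 12 from 122572229 to 122573713, met over 868 bp at its lower end and over 405 bp at its upper end. H3K4me3 fold was 40.5 and 19.7, and H3K27me3 fold at the lower end 21.8 and 21.1. In replicate 1 a single H3K27me3 peak reached both ends. Only in replicate 2 were the ends met by different peaks, that at the upper end with a fold of 6.79.

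Regions with intervals often followed each other in the order along the chromosome. After an H3K4me3 region with an interval, the next H3K4me3 region along the chromosome also held one in 24.5% (723 of 2954). After an H3K4me3 region without, the next held one in 7.84%. For H3K27me3 regions the shares were 20.4% (612 of 2996) and 9.15%. The first share exceeded the second on 12 of 12 chromosomes for both marks. Where the next region was over 50 kb away, the shares were 17.5% and 10.4% for H3K4me3 and 19.2% and 15.3% for H3K27me3, so the gap narrowed with distance. Neighbours that meet the same region of the other mark were not counted once here. Several intervals lay on 89 H3K4me3 regions and on 57 H3K27me3 regions. These are shares of one genome, and no test was made.

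In distance, intervals were mostly single. Another interval lay within 10 kb for 826 of them (27.02%), within 1 kb for 446 (14.6%) and within 100 kb for 1608 (52.6%). The nearest was a median of 85.2 kb away, against 9.50 kb between H3K4me3 regions and 0.755 kb between H3K27me3 regions, which are about 10 times as many. For 319 intervals (10.4%) none lay within 1 Mb. When intervals that share a region of either mark were counted once, the share with another within 10 kb was 18.97%, a count added after the values had been seen. The 826 formed 370 runs linked by gaps of at most 10 kb, 302 of them pairs, and the largest held 6.

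The run of 6 lay at the very start of chromosome 1, from 27755 to 48845, with 5 intervals of nested H3K27me3 and 1 staggered. The H3K27me3 fold there was low, 3.00 to 8.12 in replicate 1 and 2.93 to 5.36 in replicate 2. All 6 had a local background above 5 times the lowest in at least 1 of the 4 libraries, against 2.81% of all intervals. The next runs held 5 intervals each and no such background. That on chromosome 3 from 267145793 to 267150377 spread over 2 H3K4me3 regions with a fold of 41.4 to 81.9 in the 2 libraries. That on chromosome 3 from 276903537 to 276913367 had an H3K4me3 fold of 4.79 to 15.1 in both libraries and was mostly staggered (4 of 5).

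A row of long intervals of nearly equal length lay on chromosome 1 from 251230607 to 251445592. It was noticed after the values had been seen, as the largest run of intervals of at least 1 kb with gaps of at most 50 kb. It held 14 intervals in 215 kb, of 1278 to 1594 bp (median 1538 bp). Of the other runs of long intervals 2 held 3 and 10 held 2, and the remaining 179 long intervals were single. All 14 H3K4me3 regions in the stretch held an interval, as did 14 of 28 H3K27me3 regions. The H3K4me3 fold was between 42.2 and 204 (median 65.4) in replicate 1 and between 34.3 and 123 (median 55.1) in replicate 2. The H3K27me3 fold was between 14.98 and 35.8 (median 26.4) and between 15.1 and 39.9 (median 23.7). Both marks were thus in the upper part of their lists in each of the 14.

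The 14 were alike in the layout of their regions and the place of the H3K4me3 summit, less so in that of the H3K27me3 summit. H3K4me3 was nested in 8, and in the other 6 it passed the upper end of the H3K27me3 region by at most 62 bp. H3K27me3 reached past the lower end of each, by 98 to 941 bp, under 200 bp in 6 and at least 600 bp in 8. The H3K4me3 summit lay 842 to 1139 bp from the start of the interval in all 28 peaks. The H3K27me3 summit lay anywhere from 303 to 1300 bp. Its replicates were far apart in some intervals, such as 382 and 1098 bp, and together in others, such as 517 bp in both. Starts were 7267 to 7470 bp apart in 5 of the 13 steps and 15029 to 37935 bp apart in the other 8. No H3K9me2 peak of either replicate lay in the stretch, and none of the 14 had a high local background. The sources used here do not say how reads that match several places were counted, and whether the 14 share sequence was not tested, so they are not taken as separate cases.

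**Figure D4:**
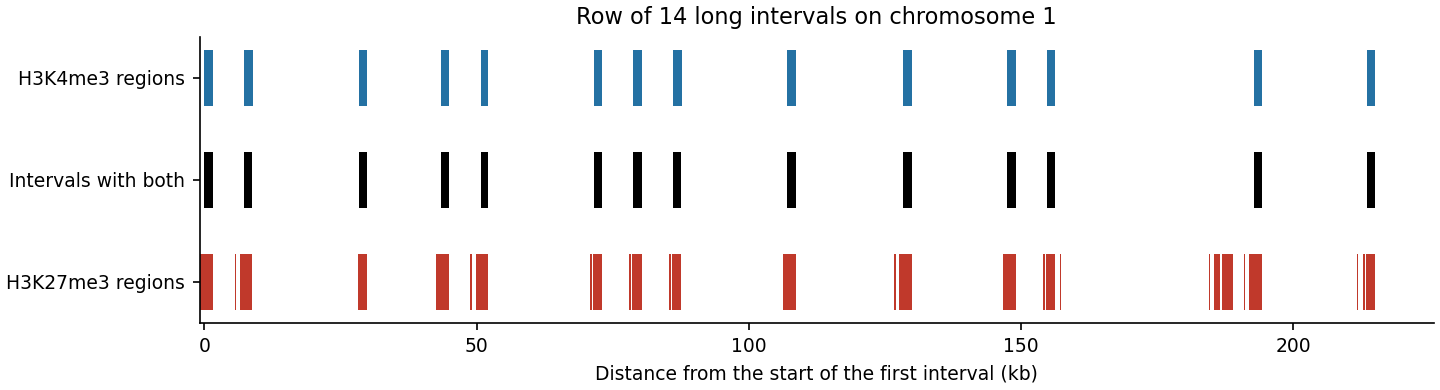
Map of the stretch of chromosome 1 with 14 intervals of at least 1 kb, as distance from the start of the first interval (kb). Bars are H3K4me3 regions (top), intervals (middle) and H3K27me3 regions (bottom), drawn to scale. Each of the 14 H3K4me3 regions coincides with an interval, while the H3K27me3 track holds 14 further regions without one.

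Along the chromosomes, intervals followed the ends, as both marks do. The outer 15% at each end held 1947 intervals (63.7%), against 61.5% of H3K4me3 regions and 66.8% of H3K27me3 regions. The middle 40% of the span held 390 (12.8%), against 15.8% and 10.7%. The intervals therefore lay between the marks in both respects. By chromosome the distal share was 64.7% ± 7.93 (SD, 12 chromosomes). It was above that of H3K4me3 regions on 9 of 12 and above that of H3K27me3 regions on 4 of 12. By class it was 60.1% for nested H3K4me3, 67.6% for nested H3K27me3 and 64.9% for staggered intervals.

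The share of regions that held an interval differed between the marks in the middle of the chromosomes. Of H3K4me3 regions 9.73% held one in the distal parts, 9.76% between and 7.65% in the middle 40%. Of H3K27me3 regions 9.86% did in the distal parts, 10.7% between and 12.2% in the middle 40%. The middle 40% held 3103 of the H3K27me3 regions and 4955 of the H3K4me3 regions.

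By chromosome, intervals were most numerous on chromosomes 3 (439) and 1 (416) and fewest on chromosomes 5 (156) and 9 (165). Per Mb they were densest on chromosome 2, with 2.06, and least dense on chromosome 9, with 0.589. Chromosome 2 also had the highest share of H3K27me3 regions with an interval, 13.6%, followed by chromosome 8 with 13.4%, while chromosome 5 had the lowest, 7.92%. For H3K4me3 regions the share ran only from 7.79% on chromosome 8 to 10.7% on chromosome 3. Chromosome 8 thus had the lowest share by one mark and nearly the highest by the other. It had 2502 H3K4me3 and 1507 H3K27me3 regions. On chromosomes 2 and 8 only 10.1% and 9.41% of intervals lay in the lower 50% of the span, as did 14.4% and 14.2% of H3K4me3 regions. The H3K27me3 shares there were 10.5% and 10.4%. On chromosome 6 the lower 50% held 80.1% of intervals, 73.4% of H3K4me3 regions and 73.1% of H3K27me3 regions.

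**Figure D5:**
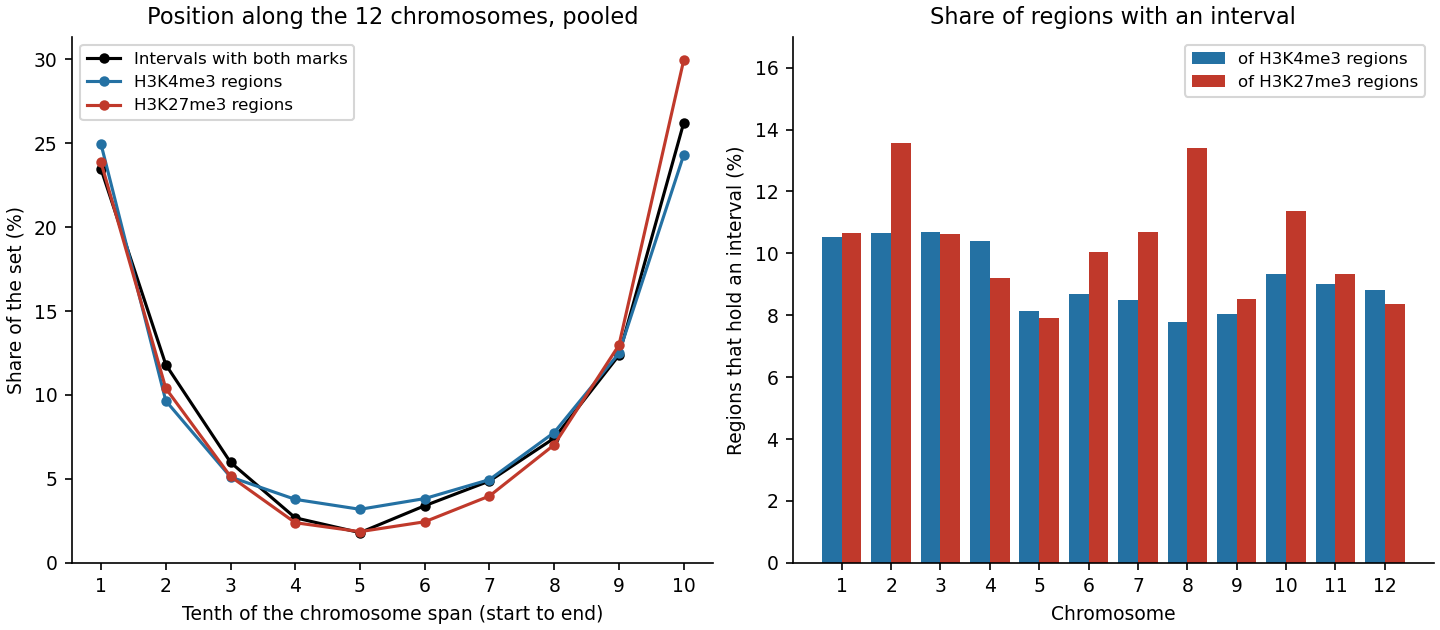
Left, the share of intervals, H3K4me3 regions and H3K27me3 regions in 10 equal parts of the chromosome span (percent, 12 chromosomes pooled). All 3 lines are highest in the outermost parts, where the intervals have 23.5% and 26.2%. Right, the percentage of H3K4me3 and of H3K27me3 regions that hold an interval on each chromosome, with the largest values for H3K27me3 regions on chromosomes 2 (13.6%) and 8 (13.4%).

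Regions with an interval differed from the rest of their mark in width and spacing. H3K4me3 regions with an interval had a median width of 558 bp, against 827 bp without. H3K27me3 regions with an interval were 625 bp wide, against 431 bp. The nearest other H3K27me3 region was a median of 1.55 kb away from those with an interval and 0.712 kb from those without, and lay within 1 kb for 41.0% and 60.2%. H3K27me3 regions with an interval thus stood less often in dense rows of their own mark. They were also wider, and spacing was not compared at like width. Counted per interval and not per region, the median distance was longest for H3K27me3 nested in H3K4me3, at 4.798 kb. It was shortest for the hosts of nested H3K4me3, at 0.966 kb. Spacing of H3K4me3 regions differed little, at 11.8 kb with and 9.26 kb without.

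H3K9me2, known from silent transposons, was not used to choose the intervals and was almost absent from them. Of the 3057 intervals, 2 met an H3K9me2 peak of either replicate (0.0654%, Wilson 95% interval 0.0179 to 0.238%, counting error only). Of all regions of at least 100 bp, 0.0159% of H3K4me3 regions and 0.227% of H3K27me3 regions met one. The share of the intervals lay between these backgrounds and rests on 2 intervals, so no difference is read from it. One of the 2, on chromosome 8 from 169986173 to 169986427, met H3K9me2 in both replicates. Fold there was 4.81 and 12.9 for H3K4me3, 7.59 and 5.97 for H3K27me3 and 11.95 and 8.33 for H3K9me2. The other, on chromosome 1 from 40065 to 40253, is part of the run of 6 described above. Both had a local background above 5 times the lowest. Within 5 kb, H3K9me2 of either replicate was found for 46 intervals (1.505%), against 1.38% of H3K4me3 regions and 1.84% of H3K27me3 regions without an interval.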

How the data were processed

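Peaks of 3 histone marks were deposited for 6 libraries, 1 list per library. Per the labels' protocols, chromatin was fixed for 10 min in 1% formaldehyde, sonicated and precipitated, and libraries were read as 150 bp pairs. MACS2 2.2.7.1, deepTools 3.3.0, Trimmomatic 0.38 and BWA 0.7.17 are named in the submitters' processing notes. For their roles, settings and the build, the sources used here give nothing. The deposited fold is a linear ratio over local background for each peak, and the deposited lists give a −log10 p and a −log10 q. The lowest −log10 q was 2.01 to 2.02 in the 4 lists used for the intervals. The input samples were not used here, and the sources used here do not say whether the authors' calling used them.

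The number of fragments over a summit was solved from fold and p together, taking 1 added fragment in both terms of the fold and a Poisson upper tail for p. For 100% of peaks the solution was whole to within 0.01. Total depth is unknown. Positions count from 1, and the last peak end stood for chromosome length. The peak of highest fold over an interval gave its values, so intervals within the same peak repeat them. No gene was assigned, since the gene table at hand is of another assembly. Sequence of the build was not used here.

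The members and lists were chosen with earlier results of these data known. Named are the 2 longest intervals per class, the 3 highest and 3 lowest ratios of H3K4me3 to H3K27me3 fold, the 3 largest runs, the 2 regions of each mark with most intervals, the 2 longest H3K4me3 regions met at both ends, those beside the length limit, and intervals with H3K9me2 in both replicates. No p-value is given, since the same peak calls chose the intervals. The spread given is the range over the 4 pairs of single libraries. These pairs share libraries, and each uses 2 of the 4, so the range is not an error of the values from all 4. Several of those values lie outside it. There were 3057 intervals against 4028 to 4356 in the pairs. The share with another within 10 kb was 27.02% against 29.7 to 30.3%. Finding of intervals and recovery of fragments were tested on simulated data. Python 3.11.15, numpy 2.4.6, scipy 1.17.1 and matplotlib 3.10.9 were used.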

Additional observations from a re-analysis of the deposited data

How the results depend on the processing

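No paired analysis was possible because no result comes from a test and replicate numbers join no plants. Values are compared with the SD over the 4 pairs of single libraries, which is small (0.435 points for nested H3K4me3, 2.36 bp for length), so most alternatives moved values by more than it. The order of the 3 classes was the same under each limit on peaks or length, with each library left out, with either replicate and with joining. It did not hold with at least 50% of both regions covered and 20 fragments in all 4 libraries, where nested H3K27me3 had 335 intervals and staggered ends 336. With −log10 q limited to 10 or more there were 1682 intervals, and 5461 in bases of either replicate. Leaving out intervals whose local background passed 5 times the lowest kept 2971. With −log10 q limited to 5 or more, median length was 431 bp, nested H3K4me3 43.0%, summits inside 91.5% for H3K4me3 and 89.3% for H3K27me3, summit distance 50 bp, share within 10 kb 23.9% and distal share 62.6%. At 10, in the same order, they were 523 bp, 41.1%, 93.9%, 92.0%, 45.9 bp, 17.1% and 62.4%, with nested H3K27me3 at 31.4% and staggered at 27.5%. With peaks within 1 kb joined, length was 440 bp, nested H3K4me3 46.4%, nested H3K27me3 26.9%, staggered 26.7%, summits inside 93.5% and 89.8%, and the share within 10 kb 14.6%. In bases of either replicate, length was 401 bp, nested H3K4me3 45.2%, summits inside 90.2% and 88.6%, distance 57.5 bp, share within 10 kb 34.4% and distal share 65.3%. With intervals of at least 200 bp, length was 416 bp, nested H3K4me3 44.3%, summits inside 91.3% and 89.0%, and the share within 10 kb 24.8%. Ends within 50 bp counted as the same gave 46.8%, 35.6% and 9.42% for nested H3K4me3, nested H3K27me3 and staggered, and ends within 100 bp gave 42.0%, 31.7% and 5.005%. The rest then had both ends the same, and a single shared end counted as nested. The staggered share changed most of the 3, but the nested shares are net of moves into and out of them. Another interval lay within 5 kb for 22.6% and within 50 kb for 42.7%, and within 10 kb for 18.97% when intervals sharing a region counted once, which was added after seeing the data. The outer 10% held 49.7% and the outer 25% 82.6%. Leaving out each library in turn gave 3421 to 3670 intervals, lengths of 394 to 398.5 bp, nested H3K4me3 43.0 to 43.6%, nested H3K27me3 32.0 to 33.7%, staggered 22.8 to 24.4%, summits inside 88.1 to 91.9% for H3K4me3 and 86.3 to 90% for H3K27me3, distances of 54 to 58 bp, a share within 10 kb of 27.5 to 29.5% and a distal share of 63.4 to 64.8%. The row of 14 long intervals held 14 with −log10 q limited to 10 or more and without each library, and 12 with gaps of at most 20 kb. The cause of these moves was not tested, apart from the choices that redefine the quantity itself. The lowest of the 4 fragment numbers had a median of 21 and was below 20 in all but 1665 intervals. Whether depth limits the weaker mark was not tested.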

Other observations

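The densest megabases are given here as values, without the same count for all regions of either mark, which also gather at the chromosome ends. Of 3074 bins of 1 Mb, 1280 held an interval (41.6%), and 269 bins (8.75%) were enough to hold 50% of all intervals. The 24 bins with 10 or more held 291. These bins were looked at after the counts had been seen. The fullest, on chromosome 1 from 56 to 57 Mb, held 20 intervals on 18 of its 50 H3K4me3 regions (36.0%) and 17 of its 55 H3K27me3 regions (30.9%), 11 of them with nested H3K4me3, 6 with nested H3K27me3 and 3 staggered. It also holds the H3K4me3 region with 3 H3K27me3 regions inside it. The next, from 251 to 252 Mb, has 18 and includes the row of 14 long intervals. On chromosome 3 from 17 to 18 Mb there were 15, on 13 of 65 H3K4me3 regions and 15 of 37 H3K27me3 regions (40.5%), with a median length of 550 bp. None of these 3 bins had an interval with a high local background.

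Outside the 12 chromosomes, 2 further sequences held 7 intervals of at least 100 bp, which are not among the 3057.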
